A study of Homo sapiens with 6 samples.

Results

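The TRIM (tripartite motif) genes were examined in RNA-Seq libraries of A549, a cell line derived from a human lung adenocarcinoma, after silencing of the long noncoding RNA FAM83H-AS1. Members were the rows of type mRNA in the deposited count table whose symbol was TRIM followed by a digit, which gave 76 of 40173 genes in the table and of 19756 rows of type mRNA. Another 37 rows with such symbols were of noncoding types and were left out. The rule uses symbols and row types and no measured value, although the family was picked with earlier results of these data known. The control group held 3 libraries of A549 cells transfected with a negative control, and the silenced group held 3 libraries of A549 cells transfected with an siRNA against FAM83H-AS1. All cells were harvested 24 h after transfection, so that both groups shared the exposure to transfection. The labels did not state whether the replicates came from separate cultures, so that p-values measure the spread between these libraries, which may be technical. All results rest on 1 cell line, and which siRNA was used for these libraries was not stated.

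TRIM proteins carry a RING finger, 1 or more B-box zinc fingers and a coiled coil, and most of them act as E3 ubiquitin ligases. The C-terminal domain differs between members and sets what each protein recognises: a PRY-SPRY domain in the largest branch, a PHD finger with a bromodomain in chromatin-bound cofactors, NHL repeats in another branch and a COS box in members that bind microtubules. Several members are induced by interferon and act against viruses or in the pathways that sense viral RNA and DNA. Others regulate transcription, the cytoskeleton, autophagy or the turnover of signalling proteins without a known dependence on interferon.

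Library totals ranged from 9738291 to 17742643 counts, and levels are given in CPM, counts scaled per 1000000 of the normalized library size. FAM83H-AS1 was at 14.5, 16.0 and 17.3 CPM in control replicates 1, 2 and 3 and at 4.59, 4.44 and 5.57 CPM in silenced replicates 1, 2 and 3, a change of -1.70 ± 0.148 (SE) on the log2 scale (edgeR adjusted p = 7.99e-05). The 5 epithelial markers (KRT7, KRT8, KRT18, EPCAM and CDH1) summed to between 4427 and 4727 CPM in the control and between 3532 and 3573 CPM in the silenced libraries, nearly all of it from the keratins, with EPCAM and CDH1 at no more than 4.49 CPM in any library. Of the 4 leukocyte markers, CD3E had no count in any library, PTPRC had no more than 1 count, and the sum stayed at or under 2.30 CPM. The 5 endothelial and fibroblast markers summed to between 30.3 and 43.8 CPM, mostly COL1A1, while PECAM1 had at most 2 counts in a library. Of the epithelial markers KRT7 and KRT18 fell in the silenced cells, while KRT8 (log2 fold change -0.20), EPCAM (-0.17) and CDH1 (0.82, from 0.780 to 1.38 CPM) were not called, and the part of these shifts in the TRIM results was not tested. In bulk RNA, fewer cells of a kind and less RNA per cell cannot be told apart.

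TRIM genes were called in both directions, with small changes. Of the 76 members, 46 passed the filter on low counts and were tested, 12 had counts below the filter and 18 had none. By edgeR's quasi-likelihood test with Benjamini-Hochberg adjustment over the 15250 tested genes of the table, 10 of the 46 had an adjusted p under 0.05, the rule for a call here, a share of 21.7%. Among all tested genes, 17.0% were called. TRIM16, TRIM16L, TRIM5, TRIM2 and TRIM38 rose and TRIM65, TRIM41, TRIM23, TRIM47 and TRIM7 fell. In all genes, 8.75% were called higher and 8.27% lower. By the same rule none of the members passed the fold change of 2 that the methods of the study added to its threshold, which 2.14% of all tested genes did together with an adjusted p under 0.05. The median log2 fold change was 0.02 over the 46 members and -0.00 over all tested genes.

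**Figure D1:**
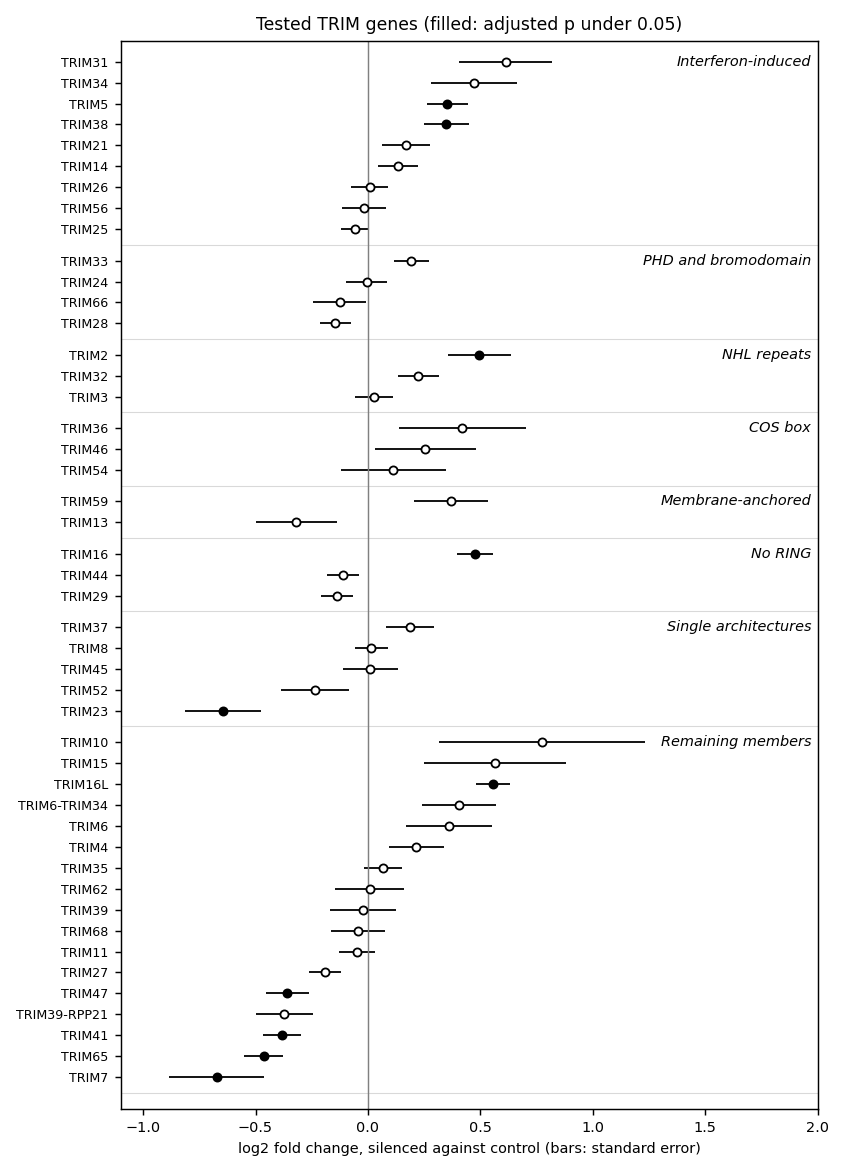
Log2 fold change (silenced against control, x axis) with its standard error for each of the 46 tested TRIM genes (y axis), grouped by the lists used in the text. Filled circles mark the 10 genes with an adjusted p under 0.05, which lie on both sides of 0 between -0.67 and 0.56.

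Silenced and control libraries did not overlap for 23 of the 46 tested members, 13 of which were not called, while 36.6% of all tested genes showed such a separation. Of the members, 27 had a log2 fold change above 0 and 19 below 0, against 49.9% and 50.1% of all genes. With 3 libraries on each side, exact permutation of 1 gene at a time reaches p = 0.1 at the lowest, so that calls rest on the spread that edgeR shares across genes. Summed over all members, the level was 2862, 2808 and 2793 CPM in control replicates 1, 2 and 3 and 2777, 2835 and 2676 CPM in silenced replicates 1, 2 and 3. The sums overlapped between the groups. They weigh abundant genes most: TRIM28 and TRIM29, neither of them called, made 24.6% and 16.0% of the sum in the control.

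The interferon-induced members were taken as TRIM5, TRIM14, TRIM21, TRIM22, TRIM25, TRIM26, TRIM31, TRIM34, TRIM38, TRIM56 and TRIM69. Of these 11 genes, 9 were tested, 2 rose, none fell and 7 did not pass the test. Their median log2 fold change was 0.17, beside 0.01 for the 37 other tested members. The share called, 22.2%, was close to that of the other members, 21.6%, and the sum of the 11 genes lay between 518 and 541 CPM in the control and between 533 and 564 CPM in the silenced libraries. TRIM25 and TRIM26, neither of them called, were the most abundant genes in this sum.

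TRIM5, a restriction factor that binds the capsids of incoming retroviruses, was at 32.6, 36.1 and 31.9 CPM in control replicates 1, 2 and 3 and at 43.4, 45.5 and 39.6 CPM in silenced replicates 1, 2 and 3. Every silenced library was above every control library. The mean rose from 33.5 ± 2.27 to 42.8 ± 2.97 CPM (SD, n = 3 each), with a change of 0.35 ± 0.0895 (SE) on the log2 scale (edgeR adjusted p = 0.0218). Without control replicate 1, control replicate 3, silenced replicate 1 or silenced replicate 2, the log2 fold change was from 0.31 to 0.34 and the edgeR adjusted p from 0.0559 to 0.0795. TRIM38, a regulator of Toll-like receptor and interferon signalling, was at 27.6, 30.1 and 26.0 CPM in the control and at 32.3, 39.2 and 34.7 CPM in the silenced libraries, again without overlap. Its mean rose from 27.9 ± 2.11 to 35.4 ± 3.50 CPM (SD, n = 3 each), with a change of 0.35 ± 0.101 (SE) on the log2 scale (edgeR adjusted p = 0.0372). The call for TRIM38 was lost with any library left out except control replicate 2, with log2 fold changes from 0.27 to 0.41 and adjusted p from 0.0542 to 0.128 by edgeR.

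**Figure D2:**
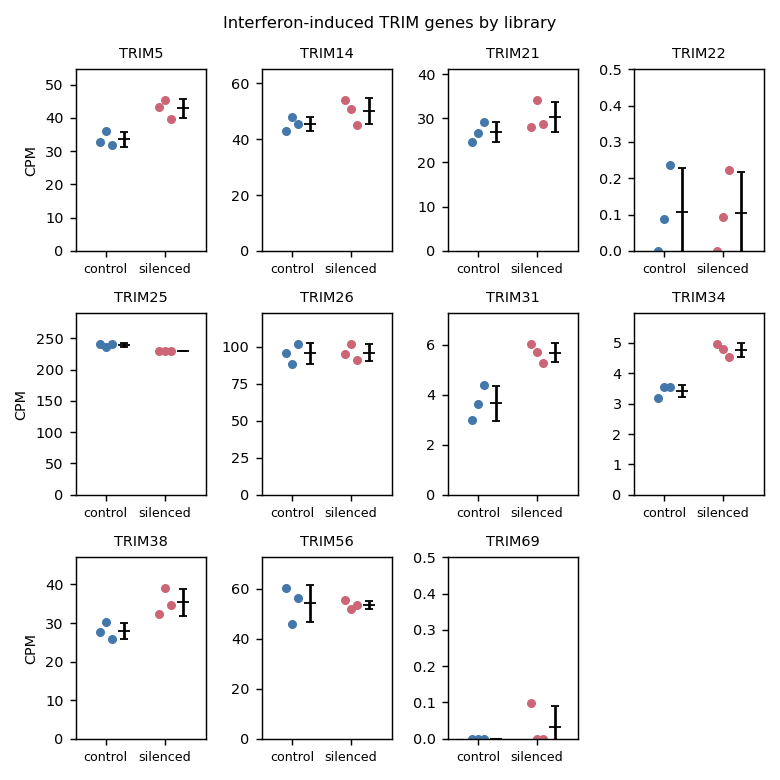
CPM (y axis, from 0) of the 11 interferon-induced TRIM genes in each control (blue) and silenced (red) library, with the mean and SD of 3 libraries in black. TRIM5, TRIM31, TRIM34 and TRIM38 are higher in every silenced library than in any control library, TRIM25 is lower in every silenced library, and TRIM22 and TRIM69 are near 0. Of all tested genes, 36.6% showed such a separation in either direction.

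TRIM31 and TRIM34 were less abundant and did not pass the test. TRIM31, a ligase that acts on the antiviral adaptor MAVS, was at 2.98, 3.63 and 4.38 CPM in control replicates 1, 2 and 3 and at 6.05, 5.73 and 5.28 CPM in silenced replicates 1, 2 and 3. The groups did not overlap, and the log2 fold change was 0.61 ± 0.205 (SE), with an edgeR adjusted p of 0.0628. Without control replicate 3, it was 0.77 with an adjusted p of 0.0442 by edgeR. TRIM31-AS1, a gene on the other strand, overlaps TRIM31, and whether reads were assigned by strand was not stated. TRIM34, a close relative of TRIM5, was at 3.19, 3.54 and 3.55 CPM in the control and at 4.98, 4.81 and 4.53 CPM in the silenced libraries (log2 fold change 0.47 ± 0.192 SE, edgeR adjusted p = 0.118). The silenced libraries were again all above the control libraries. TRIM34 shares exons with the readthrough gene TRIM6-TRIM34.

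TRIM25, TRIM26, TRIM56, TRIM21 and TRIM14 were not called. TRIM25, the ligase that ubiquitinates RIG-I, was at 241, 236 and 242 CPM in the control and at 229, 230.1 and 230.4 CPM in the silenced libraries. These libraries did not overlap, but the log2 fold change was -0.06 ± 0.0628 (SE), with an edgeR adjusted p of 0.562. TRIM26 was at 95.6 ± 6.93 and 96.2 ± 5.47 CPM (SD, n = 3 each) and TRIM56, which acts in STING and Toll-like receptor signalling, at 54.2 ± 7.41 and 53.6 ± 1.65 CPM. Their log2 fold changes of 0.01 and -0.02 changed sign under several settings. TRIM21, the cytosolic receptor for antibody-coated viruses, was at 24.7, 26.6 and 29.1 CPM in the control and at 28.0, 34.2 and 28.6 CPM in the silenced libraries (log2 fold change 0.17, edgeR adjusted p = 0.305). TRIM14, an adaptor at MAVS, had a log2 fold change of 0.14 (edgeR adjusted p = 0.328), and for both genes the groups overlapped.

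TRIM22, which is strongly induced by interferon in many cell types, had 0, 1 and 4 counts in the control and 0, 1 and 3 counts in the silenced libraries. TRIM69 had 1 count, in silenced replicate 1. A count of 0 allows up to 3 counts, which is between 0.177 and 0.308 CPM in these libraries, and this limit covers counting error only. TRIM22 and TRIM69 were therefore barely detectable at this depth in either group.

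Promoter windows were searched for the core of the interferon-stimulated response element, spelled GAAA, any 2 bases, GAAA, on either strand. The windows, taken from RefSeq (GRCh38.p14), run from 250 bases before to 50 bases after a gene's start, and 59 of the 76 members had 1 or more. The letters were found in 10 of these 59 members (16.9%) and in 4.38% of the 27305 genes with a window. Of the 10 interferon-induced members with a window, 6 held them (TRIM5, TRIM14, TRIM21, TRIM26, TRIM34 and TRIM69), against 4 of the 49 others. The members below are shown because they cover these 6 genes and the 3 tested members outside the list with a match. The capitals mark the matched letters in the orientation of the gene, so that a match on the other strand reads TTTC, 2 bases, TTTC, and each line gives 30 bases 5′ to 3′ on the gene's own strand.
TRIM5 (chr11:5685082-5685111, minus strand): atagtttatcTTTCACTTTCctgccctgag
TRIM14 (chr9:98119229-98119258, minus strand): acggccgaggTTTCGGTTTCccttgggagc
TRIM21 (chr11:4393666-4393695, minus strand): cttctgagcgGAAACTGAAAgtgaaatagg
TRIM26 (chr6:30213581-30213610, minus strand): tcccgcctgaTTTCAGTTTCcatttcgctg
TRIM34 (chr11:5624901-5624930, plus strand): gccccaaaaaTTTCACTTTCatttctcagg
TRIM69 (chr15:44736456-44736485, plus strand): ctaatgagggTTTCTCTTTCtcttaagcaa
TRIM2 (chr4:153151936-153151965, plus strand): aataaatagaGAAAAGGAAAtaagccgaag
TRIM16 (chr17:15683012-15683041, minus strand): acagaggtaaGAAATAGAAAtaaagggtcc
TRIM44 (chr11:35662730-35662759, plus strand): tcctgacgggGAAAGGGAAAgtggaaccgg

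In TRIM21 and TRIM26, another match overlaps the one shown. Of the members called higher, 4 had a window and 3 of these held the letters (TRIM5, TRIM2 and TRIM16), and none of the 5 members called lower did. The 4 genes had 9 windows and the 5 genes 7, so that more bases per gene were searched in the former, and 3.78% of all tested genes with a window held the letters. TRIM38, which rose as well, held none in its window. TRIM14, TRIM21, TRIM26, TRIM34 and TRIM44 held the letters and were not called. These counts are a description of letters in short windows, and whether any factor binds there was not measured.

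The changes with the smallest adjusted p were those of TRIM16L and TRIM16. TRIM16 lacks a RING finger and takes part in the autophagy of damaged lysosomes, and TRIM16L is a shorter, nearly identical relative on the same chromosome, 17. TRIM16 was at 110.1, 104 and 119.9 CPM in control replicates 1, 2 and 3 and at 151, 166 and 148 CPM in silenced replicates 1, 2 and 3. TRIM16L was at 69.9, 67.0 and 73.3 CPM in the control and at 99.1, 109 and 102 CPM in the silenced libraries. Both genes were higher in each silenced library than in any control library. The mean of TRIM16 rose from 111 ± 8.15 to 155 ± 9.24 CPM (SD, n = 3 each), with a change of 0.48 ± 0.0806 (SE) on the log2 scale (edgeR adjusted p = 0.00341), and that of TRIM16L from 70.1 ± 3.15 to 103 ± 4.96 CPM (SD, n = 3 each), with a change of 0.56 ± 0.0756 (SE) on the log2 scale (edgeR adjusted p = 0.00106). Both calls held in all 13 other fits. The counts of TRIM16L were between 0.611 and 0.646 times those of TRIM16 in the control and between 0.657 and 0.687 times in the silenced libraries. Reads may have been shared between the 2 rows, which are not independent observations. Their summed level was 181 ± 11.3 CPM in the control and 258 ± 13.9 CPM in the silenced cells (SD, n = 3 each). This sum does not depend on how reads were divided between the rows, unless shared reads were dropped or counted in both. How such reads were treated was not stated.

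TRIM29 and TRIM44, which were listed with TRIM16 as members without a RING finger, did not pass the test. The list did not include members placed in other lists, such as TRIM16L. TRIM29, a gene of stratified epithelia, was at 484, 429 and 441 CPM in the control and at 418, 407 and 405 CPM in the silenced libraries, with no overlap. Its log2 fold change was -0.14 (edgeR adjusted p = 0.197), opposite in sign to that of TRIM16. TRIM44 had a log2 fold change of -0.11 (edgeR adjusted p = 0.324).

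**Figure D3:**
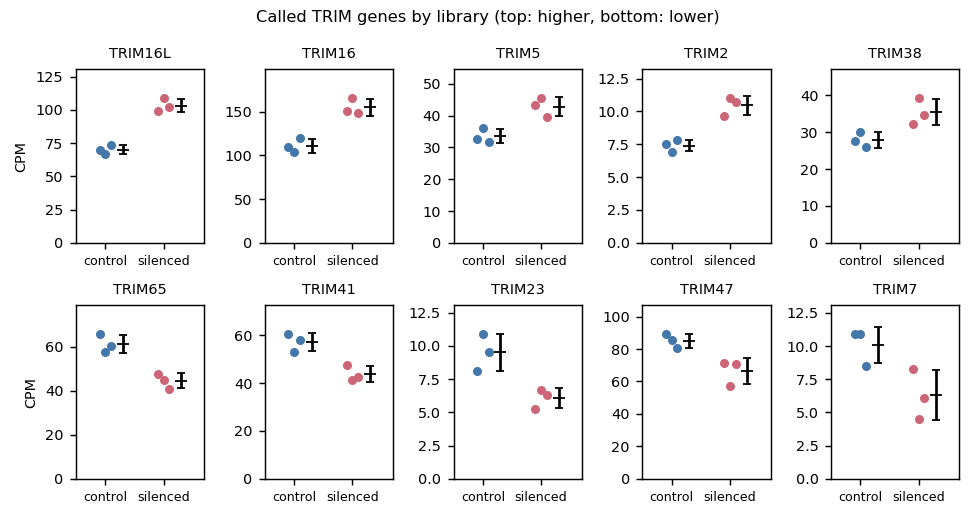
CPM (y axis, from 0) of the 10 called TRIM genes in each control (blue) and silenced (red) library, with the mean and SD of 3 libraries in black. In the top row the silenced libraries are all above the control libraries, and in the bottom row all below, with the smallest gap in TRIM7.

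Among the members with NHL repeats, 1 of 3 tested genes rose, while 8.75% of all tested genes were called higher. The others had positive log2 fold changes below the threshold, and 49.9% of all tested genes had a log2 fold change above 0. TRIM2, a ubiquitin ligase for neurofilament light chain, was at 7.51, 6.91 and 7.80 CPM in control replicates 1, 2 and 3 and at 9.67, 11.0 and 10.7 CPM in silenced replicates 1, 2 and 3. The groups did not overlap, and the log2 fold change was 0.50 ± 0.140 (SE), with an edgeR adjusted p of 0.0335. With any 1 of the 6 libraries left out the call of TRIM2 was lost, at log2 fold changes between 0.45 and 0.55 and adjusted p between 0.0528 and 0.0975 by edgeR. TRIM32, a ligase mutated in limb-girdle muscular dystrophy, had a log2 fold change of 0.22 (edgeR adjusted p = 0.12) and TRIM3 of 0.03 (edgeR adjusted p = 0.852). TRIM71 had no count.

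None of the 4 chromatin cofactors with a PHD finger and a bromodomain was called. TRIM28, also known as KAP1, the corepressor of KRAB zinc finger proteins, was at 689, 721 and 671 CPM in the control and at 632, 655 and 594 CPM in the silenced libraries. The silenced libraries were all lower, with a change of -0.15 ± 0.0688 (SE) on the log2 scale (edgeR adjusted p = 0.171). TRIM33, which binds SMAD proteins, was at 95.3, 94.6 and 94.3 CPM in the control and at 107, 117 and 101 CPM in the silenced libraries, a separation in the other direction (log2 fold change 0.19, edgeR adjusted p = 0.112). TRIM24 was at 30.1, 28.4 and 31.1 CPM in the control and at 27.7, 31.7 and 29.9 CPM in the silenced libraries, and the groups overlapped. TRIM66 had a log2 fold change of -0.13 (edgeR adjusted p = 0.49).

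TRIM23, the member that carries an ARF GTPase domain, was at 8.12, 10.9 and 9.52 CPM in control replicates 1, 2 and 3 and at 5.27, 6.66 and 6.32 CPM in silenced replicates 1, 2 and 3. All silenced libraries were below the control libraries. The mean fell from 9.51 ± 1.38 to 6.08 ± 0.722 CPM (SD, n = 3 each), with a change of -0.64 ± 0.169 (SE) on the log2 scale (edgeR adjusted p = 0.025), or 64.0% of the control level. Without control replicate 2, silenced replicate 1 or silenced replicate 3, the log2 fold change was from -0.67 to -0.54 and the edgeR adjusted p from 0.0544 to 0.101. The other members of single architectures, TRIM8, TRIM37, TRIM45 and TRIM52, had log2 fold changes between -0.24 and 0.19 and were not called. TRIM37, the member with a MATH domain, was at 47.7 ± 4.75 and 54.6 ± 6.76 CPM (SD, n = 3 each, edgeR adjusted p = 0.252).

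Of the 17 tested genes among the remaining members, most of which encode PRY-SPRY proteins, TRIM65, TRIM41, TRIM47 and TRIM7 (4 genes) fell and 1, TRIM16L, rose, a share called of 29.4% beside 17.0% of all genes. TRIM65, a ligase that activates the viral RNA sensor MDA5, was at 65.6, 57.6 and 60.3 CPM in control replicates 1, 2 and 3 and at 47.6, 44.8 and 40.8 CPM in silenced replicates 1, 2 and 3. The lowest control library was above the highest silenced library, and the mean fell from 61.2 ± 4.06 to 44.4 ± 3.39 CPM (SD, n = 3 each). The log2 fold change was -0.46 ± 0.0863 (SE), with an edgeR adjusted p of 0.00559. TRIM41, a ligase for protein kinase C, was at 60.5, 53.0 and 57.9 CPM in the control and at 47.7, 41.2 and 42.7 CPM in the silenced libraries, also without overlap. Its log2 fold change was -0.38 ± 0.0864 (SE), with an edgeR adjusted p of 0.0133. The calls of TRIM65 and TRIM41 held in all 13 other fits.

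TRIM47, another ubiquitin ligase, was at 89.1, 85.8 and 80.6 CPM in control replicates 1, 2 and 3 and at 71.1, 57.2 and 70.8 CPM in silenced replicates 1, 2 and 3, with silenced replicate 2 the lowest. Its log2 fold change was -0.36 ± 0.0946 (SE), with an edgeR adjusted p of 0.026. Without control replicate 1, control replicate 2, silenced replicate 1 or silenced replicate 2, the log2 fold change of TRIM47 was from -0.41 to -0.26 and the edgeR adjusted p from 0.0509 to 0.0729. TRIM7, which binds glycogenin, was at 10.9, 10.9 and 8.51 CPM in the control and at 8.30, 4.53 and 6.10 CPM in the silenced libraries. Control replicate 3 and silenced replicate 1 nearly met. TRIM7 had a log2 fold change of -0.67 (standard error 0.211), within its error of that of TRIM23, at an adjusted p of 0.0497 by edgeR, just under the threshold. Without control replicate 1, control replicate 2, silenced replicate 2 or silenced replicate 3, it was between -0.65 and -0.49 with an adjusted p between 0.114 and 0.136 by edgeR.

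The largest log2 fold changes below the threshold, beside that of TRIM31, were those of TRIM10 and TRIM15, which lie in the major histocompatibility complex region of chromosome 6. TRIM10, known for its expression in erythroid cells, had 7, 5 and 19 counts in the control and 20, 7 and 20 counts in the silenced libraries, with a change of 0.77 ± 0.458 (SE) on the log2 scale (edgeR adjusted p = 0.273). TRIM15 had 29, 23 and 26 counts in the control and 26, 28 and 56 counts in the silenced libraries, with a change of 0.57 ± 0.316 (SE) on the log2 scale (edgeR adjusted p = 0.244). For both, the groups overlapped, and with 1 library left out the log2 fold change ranged from 0.46 (without silenced replicate 1) to 1.25 (without control replicate 3) for TRIM10 and from 0.27 (without silenced replicate 3) to 0.84 (without control replicate 1) for TRIM15. Neither was called in these fits. TRIM10 was also at 0.51 without control replicate 2, and TRIM15 at 0.35 without control replicate 3. TRIM27, which represses transcription, was at 132, 124 and 117 CPM in the control and at 109 CPM in each silenced library (log2 fold change -0.19, edgeR adjusted p = 0.0953). The readthrough row TRIM39-RPP21 had a log2 fold change of -0.37 (edgeR adjusted p = 0.064), while TRIM39, with which it shares exons, was at -0.02 (edgeR adjusted p = 0.942).

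The 3 tested members with a COS box, TRIM36, TRIM46 and TRIM54, were at or below 5.87 CPM in every library, with log2 fold changes between 0.11 and 0.42 and no call. The membrane-anchored members, TRIM59 and TRIM13, had log2 fold changes of opposite sign and no call. TRIM59 was at 5.86, 8.21 and 7.45 CPM in the control and at 10.2, 8.51 and 9.29 CPM in the silenced libraries (log2 fold change 0.37, edgeR adjusted p = 0.147). TRIM13, which resides in the endoplasmic reticulum, was at 7.40, 10.3 and 6.98 CPM in the control and at 6.74, 6.75 and 6.24 CPM in the silenced libraries (log2 fold change -0.32, edgeR adjusted p = 0.256). In both genes the groups were separate by a narrow gap.

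Among the called members, TRIM16, TRIM38, TRIM41, TRIM47 and TRIM7 overlap exons of genes annotated on the other strand, and TRIM16, TRIM16L and TRIM5 those of a gene on their own strand. Their counts may therefore hold reads of these genes. The same limit applies to uncalled members, among them TRIM25, TRIM14, TRIM59, TRIM66, TRIM37 and TRIM13. In total, 20 of the 76 members have an exon that overlaps a gene on the other strand.

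Several members lie near each other in the genome. Members were taken as neighbours if their starts in GENCODE 29 were less than 1 Mb from that of the next member, and other genes may lie between them. By this rule TRIM47 and TRIM65 are neighbours on chromosome 17, and both fell. TRIM7, TRIM41 and TRIM52 are neighbours on chromosome 5, where TRIM7 and TRIM41 fell and TRIM52 had a log2 fold change of -0.24 (edgeR adjusted p = 0.316). The cluster on chromosome 11 holds TRIM21, TRIM68, TRIM6, TRIM6-TRIM34, TRIM34, TRIM5, TRIM22 and TRIM3, of which 6 of the 7 tested genes had a log2 fold change above 0 and only TRIM5 was called. The summed level of TRIM6, TRIM34 and TRIM6-TRIM34, which share exons, was 13.9, 15.6 and 14.0 CPM in control replicates 1, 2 and 3 and 18.8, 21.3 and 17.5 CPM in silenced replicates 1, 2 and 3, without overlap. The other tested genes within 500 kb had median log2 fold changes of -0.14 around TRIM47 and TRIM65 (31 genes, 4 called lower and 3 higher), of -0.16 around TRIM7, TRIM41 and TRIM52 (7 genes, 1 called lower and none higher) and of 0.08 around the cluster on chromosome 11 (16 genes, 1 called lower and 3 higher). On chromosome 6, TRIM31, TRIM40, TRIM10, TRIM15, TRIM26, TRIM39 and TRIM39-RPP21 lie close together. Of these, 4 of the 6 tested genes had a log2 fold change above 0 without a call. The 38 other tested genes within 500 kb had a median of 0.05 (2 called lower and 4 higher). Over all tested genes, 8.27% were called lower and 8.75% higher, and 49.9% had a log2 fold change above 0. Differences between TRIM genes and the other genes within 500 kb were not tested.

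Per kilobase of exon, TRIM28 had the highest level of the family, at 172 ± 6.37 CPM per kilobase in the control and 155 ± 7.65 in the silenced cells (SD, n = 3 each). TRIM29 followed at 44.2 ± 2.85, and then TRIM47 at 27.1 ± 1.36, TRIM25 at 25.2 ± 0.348 and TRIM26 at 21.8 ± 1.58 CPM per kilobase in the control (SD, n = 3 each). Further down, TRIM27 at 15.6 ± 0.931 and TRIM65 at 15.5 ± 1.03 CPM per kilobase (SD, n = 3 each) differed by less than their spread. In the silenced cells TRIM16 came after TRIM28 and TRIM29 on this scale, at 27.5 ± 1.64, ahead of TRIM25 at 24.2 ± 0.0591 and TRIM16L at 23.9 ± 1.15 CPM per kilobase (SD, n = 3 each), and TRIM47 had dropped to 21.1 ± 2.52. The lowest tested members were TRIM10, TRIM36 and TRIM2, at 0.214, 0.244 and 0.786 CPM per kilobase in the control. Lengths came from the exons of GENCODE 29, and a level per length depends on which exons were counted.

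**Figure D4:**
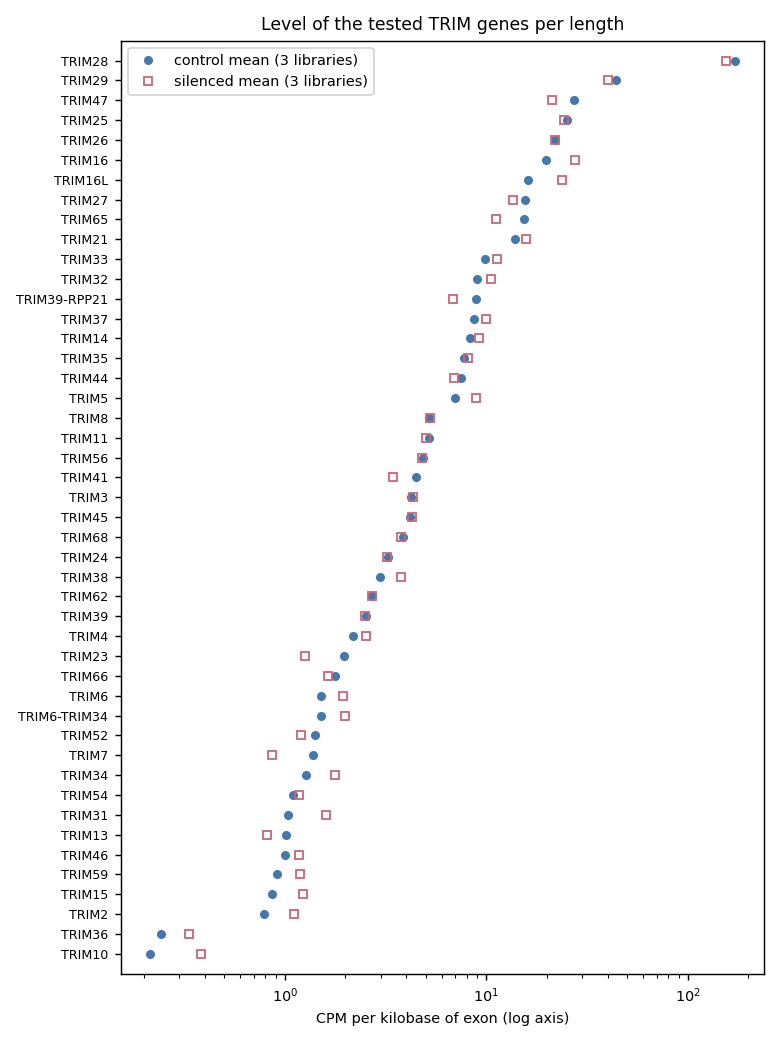
Mean level of the 46 tested TRIM genes (y axis, ordered by the control) in CPM per kilobase of exon (x axis, log scale) in control (filled circles) and silenced (open squares) cells, 3 libraries each. TRIM28 stands apart at 172 in the control, and the other members spread from 0.214 to 44.2.

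The members that could not be tested were mostly recent copies and tissue-restricted genes. The 18 members without a count included the TRIM43, TRIM48, TRIM49, TRIM51, TRIM64 and TRIM77 genes, all of which have close copies. The muscle genes TRIM55, TRIM63 and TRIM72, and TRIM9 and TRIM67, which are mainly neuronal, had at most 2 counts in a library. No untested member had more than 9 counts over the 6 libraries.

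Of the family proteins that carry other symbols, PML (TRIM19), which builds nuclear bodies and is itself interferon-induced, was at 69.1, 54.9 and 64.9 CPM in control replicates 1, 2 and 3 and at 68.2, 62.7 and 72.5 CPM in silenced replicates 1, 2 and 3 (log2 fold change 0.11, edgeR adjusted p = 0.477). MID1 (TRIM18), a microtubule-bound ligase, was at 61.9, 65.7 and 70.6 CPM in the control and at 75.8, 81.9 and 77.5 CPM in the silenced libraries, without overlap but just above the threshold (log2 fold change 0.24, edgeR adjusted p = 0.0545). Without control replicate 3, the log2 fold change of MID1 was 0.29 with an adjusted p of 0.0483 by edgeR. MID2 (TRIM1) had a log2 fold change of -0.02 that changed sign under several settings, and MEFV (TRIM20) had at most 4 counts in a library. TRIML2, a TRIM-like gene outside the rule that was picked after its values were seen, rose from 4.40 ± 0.440 to 8.10 ± 0.470 CPM (SD, n = 3 each), with a change of 0.89 ± 0.169 (SE) on the log2 scale (edgeR adjusted p = 0.0061).

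Of 12 genes of the pathway in which several antiviral members act, from RIG-I to the IRF factors, all were tested, 4 rose and 1 fell. DDX58, which encodes the viral RNA sensor RIG-I, the partner of TRIM25, was at 5.86, 5.87 and 6.03 CPM in control replicates 1, 2 and 3 and at 10.4, 12.6 and 9.22 CPM in silenced replicates 1, 2 and 3. The control libraries were nearly equal and the silenced libraries were all higher, with a change of 0.85 ± 0.161 (SE) on the log2 scale (edgeR adjusted p = 0.00603). DHX58, which encodes the related protein LGP2, rose by a log2 fold change of 0.64 (edgeR adjusted p = 0.012) and the kinase gene IKBKE by 0.52 (edgeR adjusted p = 0.00395). IFIH1, which encodes MDA5, the sensor that TRIM65 acts on, rose from 6.94 ± 0.635 to 10.3 ± 1.23 CPM (SD, n = 3 each), with a change of 0.56 on the log2 scale (edgeR adjusted p = 0.0313). The call of IFIH1 was lost without control replicate 1, control replicate 2, silenced replicate 1 or silenced replicate 2, at log2 fold changes between 0.47 and 0.55 and adjusted p between 0.0697 and 0.125 by edgeR, and under DESeq2 (log2 fold change 0.55, adjusted p = 0.0666). IRF3, a transcription factor activated downstream of these sensors, fell by a log2 fold change of -0.39 (edgeR adjusted p = 0.0111). MAVS, TBK1, TANK, TRAF3, TRAF6, RNF135 and IRF7 were not called.

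Of 8 genes of interferon receptor signalling, 5 rose and none fell, with a median log2 fold change of 0.40 over the list and 0.14 over the 12 genes above. IRF1 was at 32.3, 35.2 and 35.9 CPM in control replicates 1, 2 and 3 and at 48.2, 50.5 and 47.4 CPM in silenced replicates 1, 2 and 3, a log2 fold change of 0.50 (edgeR adjusted p = 0.00266). The groups were far apart relative to their spread. JAK1 rose by a log2 fold change of 0.46 (edgeR adjusted p = 0.00834), STAT2 by 0.40 (edgeR adjusted p = 0.0157), and the receptor genes IFNAR2 by 0.44 (edgeR adjusted p = 0.0148) and IFNAR1 by 0.35 (edgeR adjusted p = 0.018). Without silenced replicate 1 the adjusted p of IFNAR2 was 0.067 by edgeR (log2 fold change 0.41), and without control replicate 2 that of IFNAR1 was 0.0539 by edgeR (log2 fold change 0.34). The other genes of the list were not called. The share called was 41.7% in the list from RIG-I to the IRF factors, 62.5% in the receptor list and 22.2% among the interferon-induced TRIM genes, beside the 17.0% of all genes. These lists, too, were chosen with earlier results known.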

How the data were processed

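Total RNA of A549 cells was sequenced as Ion Proton libraries, 3 control and 3 silenced. The number of reads on each gene was obtained with MapSplice by the authors, who compared the groups with DESeq. The deposited values are these raw counts, without normalization. Per the labels the genome build was GRCh37, while the annotation, the MapSplice version, and the treatment of strand and of reads with several matches are not given in the sources used here. Reads of overlapping genes and of close copies may therefore be shared.

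Genes were kept with filterByExpr, scaled by TMM and tested with edgeR 4.0.16 in R 4.3.3 (quasi-likelihood, Benjamini-Hochberg over 15250 genes). The SE of a fold change was derived as its absolute log2 value over √F. Depth was 9738291 to 17742643 counts, which puts a limit of 3 counts at 0.177 to 0.308 CPM. Replicates differed by more than counting noise (chi-square per degree of freedom from 3.92 to 26.8). The highest values, 26.8 and 22.7, were those of control replicate 3 against control replicates 1 and 2, which gave 6.29 between them. The scripts were tested on simulated data in which all genes had the same spread beyond counting noise, which may differ from these libraries. There edgeR recovered 152 of 200 genes changed 1.5-fold, with 4 false calls, and 199 of 200 changed 2-fold, with 8. GENCODE 29 on GRCh38 was used only for exon lengths, overlaps and gene positions, and matched 75 members.

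Named genes were all called members, the interferon-induced list, the 3 uncalled members with the largest changes and the 3 with the most counts, family proteins under other symbols and called pathway genes; members named beyond these were picked after their values were seen. The members and lists were chosen with earlier results of these data known. Alternatives were RLE and library-size scaling, DESeq2 1.42.0, other filters, mRNA rows only, a replicate block, other thresholds and each library left out. Leaving out TRIM34, or the rows TRIM16L, TRIM6-TRIM34 and TRIM39-RPP21, was added after the data were seen.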

Additional observations from a re-analysis of the deposited data

How the results depend on the processing

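Over the single genes named, 400 of 454 values under other settings kept their direction and side of the threshold, 36 lost the call, 8 gained it and 10 changed sign. TRIM16, TRIM16L, TRIM41 and TRIM65 were called in all 13 other fits. TRIM2, TRIM38 and IFIH1 were not called by DESeq2, nor TRIM7 with library size only. TRIM31 was called with library size only (adjusted p = 0.0487 by edgeR), with at least 10 counts in every library (0.0495) and with mRNA rows only (0.0407), which made 3 interferon-induced calls each. With library size only, 6 members were called higher and 4 lower, while the share of all genes called was 16.7%. With 1 library left out, the members called numbered 2 to 4 higher and 2 to 5 lower, the interferon-induced calls 0 to 2 with a median log2 fold change between 0.11 and 0.24, the calls outside that list 4 to 7, and 5 to 7 of the 10 called members stayed called. The pathway lists kept 8 to 10 calls, family proteins under other symbols had 0 to 1, the median of all members was 0.02 to 0.05, the share of all genes called was 7.87% (without silenced replicate 1) to 12.7%, and FAM83H-AS1 stayed between -1.82 and -1.64.

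At an adjusted p under 0.01, 2 members were called higher and 1 lower, 0 of them interferon-induced and 3 outside that list, and 4 pathway genes were called. At an adjusted p under 0.05 with a fold change over 2, these counts were all 0, beside 2.14% of all tested genes. The share of all genes with an adjusted p under 0.01 was not computed. Under DESeq2, 3 members were called higher, 1 of them interferon-induced, and 5 lower. The share of all genes called was 9.06%, taken over 25864 genes and not over the 15250 of the main fit. The median of the members, 58 under DESeq2, was 0.0832. With all genes that had at least 1 count, the median was 0.0702, since low members entered. MID1 alone made 1 call among family proteins under other symbols with library size only, the replicate block or mRNA rows only. Signs changed near 0 for TRIM56 (log2 fold change 0.0196 with library size only, -0.122 to 0.0612 with 1 library left out), MID2 (0.0133 with library size only, -0.125 to 0.148 with 1 library left out) and TRIM26 (-0.00212 with all genes of at least 1 count, -0.0473 to 0.0584 with 1 library left out). The cause was not tested.

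Same-numbered control and silenced libraries had correlations of their deviations of 0.142, 0.17 and 0.0627, so that the numbers were not taken as pairs, although each library correlated best with its own number. With the replicate number as a block, 5 members were called higher and 6 lower, TRIM39-RPP21 in addition, while the share of all genes called rose from 17.0% to 22.6%. With mRNA rows only, TRIM31 and TRIM39-RPP21 were added and 23.3% of the 12258 genes of that fit were called. Without the 3 rows that share sequence, a choice made after seeing the data, 4 members were called higher and 5 lower.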
